A study of Mus musculus with 4 samples.

Results

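The 32 genes described here encode proteins that copy DNA in S phase, the part of the cell cycle in which the genome is duplicated. They were taken by name as a list of S phase and DNA replication genes, and all 32 were found among the 32227 genes of the matrices. Their RNA was measured by single-cell sequencing (PIPseq) of bone marrow from wild-type (WT) mice. All mice had received E0771 cells, a mouse breast cancer line, 3 days before surgery, so both groups had received tumour cells. Surgery was ligation of the femoral artery, which cuts blood flow to the hind limb, and controls had a sham operation. On day 9 after surgery, marrow was sorted for progenitors without lineage markers that carried cKit, with or without Sca1. Each group had 4 replicates marked by hashtags, oligonucleotide tags that label the cells of a replicate before pooling, and each of 2 batches held 2 sham and 2 surgery replicates. The labels give neither the age of the mice nor how many mice each hashtag stands for. The p-values below therefore reflect variation among hashtags, which may be technical.

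Before DNA is copied, Cdc6 and Cdt1 load the ring of Mcm2 to Mcm7 onto origins, and Cdc45 with the GINS complex then turns this ring into the working helicase. Polymerase alpha with primase starts each strand, the clamp Pcna holds the later polymerases in place, and ribonucleotide reductase with its partner enzymes supplies the nucleotides. Many of these genes are switched on by E2F factors as a cell leaves G1, and in marrow they mark progenitors that are dividing.

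Promoters of 3 members are shown here, because E2F sites are a feature that the choice of genes did not use. RefSeq windows on GRCm38.p6, from 250 bases before to 50 bases after a start site, matched 26 of the 32 members in 29 windows; Mcm4 is among those without one. The search used TTTCCCGC, TTTCGCGC, TTTGCCGC and TTTGGCGC on both strands, overlapping matches were counted separately, and matches are in capitals. Each sequence runs 5′ to 3′ on the strand of the gene.
Mcm6, chr1:128359656-128359955, minus strand: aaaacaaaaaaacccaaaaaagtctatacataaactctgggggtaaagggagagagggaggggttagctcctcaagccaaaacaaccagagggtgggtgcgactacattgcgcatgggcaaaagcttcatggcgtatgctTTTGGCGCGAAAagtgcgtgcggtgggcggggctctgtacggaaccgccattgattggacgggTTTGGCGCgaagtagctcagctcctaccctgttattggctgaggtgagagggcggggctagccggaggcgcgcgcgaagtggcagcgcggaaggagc
Cdc6, chr11:98907901-98908200, plus strand: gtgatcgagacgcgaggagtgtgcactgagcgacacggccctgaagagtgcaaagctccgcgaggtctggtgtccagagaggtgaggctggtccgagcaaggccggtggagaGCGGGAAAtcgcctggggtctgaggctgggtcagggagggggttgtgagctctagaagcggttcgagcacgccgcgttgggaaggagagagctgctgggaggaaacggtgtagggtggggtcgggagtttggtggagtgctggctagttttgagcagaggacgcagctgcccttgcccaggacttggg
Pcna, chr2:132253131-132253430, minus strand: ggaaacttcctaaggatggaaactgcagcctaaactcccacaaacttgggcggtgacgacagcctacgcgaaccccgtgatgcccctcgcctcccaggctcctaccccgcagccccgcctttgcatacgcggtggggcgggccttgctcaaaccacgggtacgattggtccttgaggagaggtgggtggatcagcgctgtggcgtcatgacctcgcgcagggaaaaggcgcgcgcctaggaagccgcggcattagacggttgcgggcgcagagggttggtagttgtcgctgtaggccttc

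Mcm6 had 3 matches, starting at -110, -106 and -47 from the start site, and the first pair overlap. Cdc6 had 1 match, at -138, and the Pcna window held none of these letters. By GENCODE M21 the Cdc6 gene starts at chr11:98907801, so its RefSeq window lies inside the gene. Bases upstream of that GENCODE start were not searched. At least 1 match was present in 11 of 26 members (42.3%), against 2.605% of the 27025 genes with a window and 4.26% of those tested in all cells. It was also present in 7 of 14 E2F and G1/S regulators and in 12 of 45 other replication genes (26.7%). The members with a match were Cdc6, Cdt1, Clspn, Hells, Mcm3, Mcm5, Mcm6, Mcm7, Pola1, Rfc3 and Uhrf1. CCAAT, the letters of the NF-Y box, was found on either strand in 17 of 26 members (65.4%) and in 41.1% of all genes. Among genes of the G2 and M phases E2F letters were in 1 of 17 and CCAAT in 15 of 17. A match describes the letters of a window and not a bound site.

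By the treatment label, one library is all ligation and the other all sham, but hashtag names place both groups in each. Replicates were assigned by hashtag name, and every statement on surgery rests on those names. The 26824 cells with exactly 1 hashtag formed 30 clusters, built without cell cycle genes. Cell type names below stand for clusters that are like that type by their markers (erythroid-like, monocyte progenitor-like and so on). Replicates held 1877 to 5848 cells and 19392968 to 51592645 unique molecular identifiers (UMIs, counts of captured RNA molecules), with medians per cell of 5860.5 to 7244 in batch 1 and 10291 to 12392 in batch 2. The batches shared 4 barcodes among these cells.

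The replication genes were highest in erythroid progenitors and, with the classes as drawn here, lowest in late B cells. Levels are CPM, UMI counts scaled to a fixed library total and summed over the cells of a class in a replicate, as mean ± SD of 8 replicates, and are compared between classes and not between genes. The 32 genes together made up 7230 ± 292 CPM in erythroid progenitors, 4728 ± 647 in pro-B and pre-B cells and 4541 ± 232 in cluster 7, a cluster with Siglech, Irf8 and Flt3 among its leading genes. All 8 erythroid replicates (6889 to 7687) lay above all those of pro-B and pre-B cells (3899 to 5390). Below them the order was monocyte progenitors (4182 ± 85.7), cluster 9 (3967 ± 219), megakaryocyte progenitors (3902 ± 300), cluster 0 (3828 ± 88.6), mature neutrophils (3794 ± 884) and cluster 4 (3566 ± 139). Lymphoid-primed progenitors had 3525 ± 322 CPM, neutrophil progenitors 3468 ± 91.01, basophil and mast cell progenitors 3406 ± 247, stem and early multipotent cells 3364 ± 161 and eosinophil progenitors 3224 ± 380. From pro-B and pre-B cells to eosinophil progenitors each class overlapped the next. T, NK or innate lymphoid cells (1946 ± 246) and late B cells (1093 ± 209) lay below all of these without overlap. Classed by the marker UMIs of each cell alone, 586 of the 1779 stem and early multipotent cells kept that name. Another 209 became neutrophil progenitors and 887 had no name. The 10 stem and early multipotent markers summed to 2493 CPM in this class, 2949 in megakaryocyte progenitors and 3261 in cluster 4. Of the 1786 cells of cluster 4, 762 were stem and early multipotent by their own markers. Late B cells numbered 282, so their values for single genes rest on few UMIs. Mature neutrophils had been chosen as the class that should lack these genes, but the 86 cells of that name carried them. Of the 80 of these cells deep enough to be drawn down to 2000 UMIs each, 81.25% had at least 2 UMIs of G2 and M phase genes. Late B cells therefore served as the low class. Drawn by the marker UMIs of each cell, the late B class summed to 2232 CPM. It then held 230 of the 282 cells and 114 of cluster 14, an unnamed cluster with Iglc1 and Ms4a1 among its leading genes. With cell cycle genes in the clustering the class summed to 3588 CPM, and held 280 of the 282 cells and 83 of cluster 14. The place of late B cells as the lowest class thus depended on which cells the class took in.

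**Figure D1:**
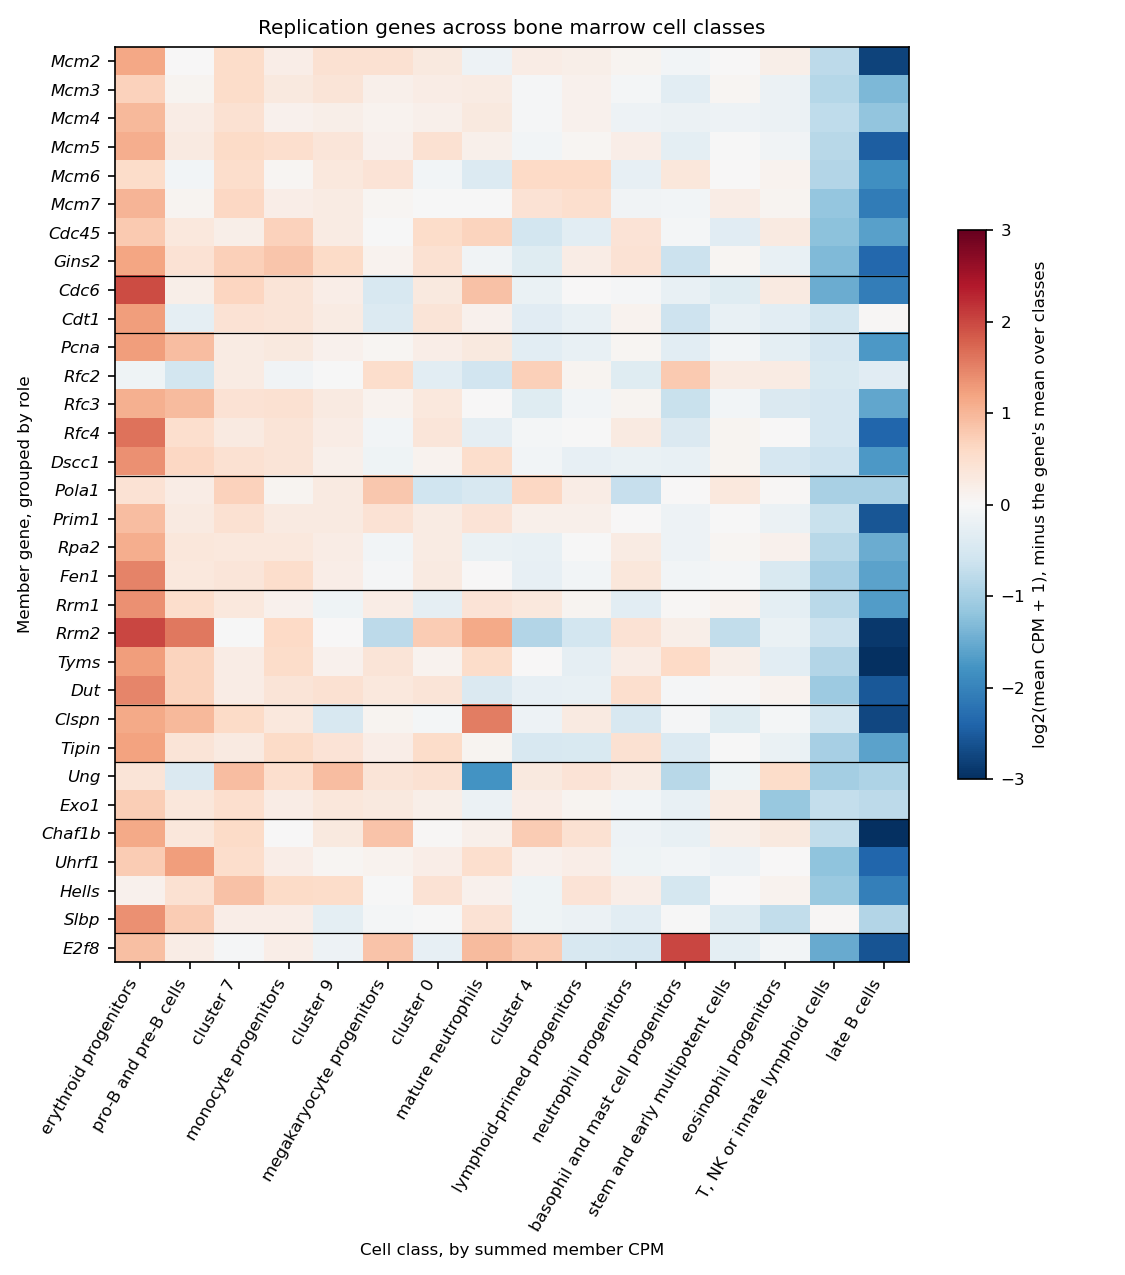
Rows are the 32 genes grouped by role and columns are the classes ordered by summed CPM; colour is log2(mean CPM + 1) over 8 replicates minus the mean of the gene over classes. Erythroid progenitors stand out as the highest column and late B cells as the lowest, while E2f8 and Rfc2 peak in basophil and mast cell progenitors.

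Of the 32 genes, 24 had their highest mean in erythroid progenitors among 16 classes, and for 15 of them all 8 erythroid replicates lay above all 8 of the next class. The lowest mean was in late B cells for 27 genes. How many of all genes peak or separate in this way was not counted, so these numbers have no baseline.

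Among the helicase genes, Mcm2 had 220 ± 17.6 CPM in erythroid progenitors, 98.7 ± 8.41 in stem and early multipotent cells and 13.4 ± 17.1 in late B cells. Mcm5 had 226 ± 12.97, 104 ± 4.92 and 17.95 ± 19.5 CPM in the same classes. Mcm7 (chr5:138164583-138172422, minus strand, GENCODE M21 on GRCm38) had 429 ± 28.1, 246 ± 16.1 and 48.95 ± 29.7 CPM. These 3 subunits of the ring thus kept the order of the whole list over the 3 classes named. Their second highest mean was in cluster 7 and not in pro-B and pre-B cells. The Mcm7 gene overlaps Cops6 and Ap4m1 on the other strand, and the sources used here do not give whether counting used strand. Mcm6, whose promoter is shown above, had another order, with 298 ± 20.9 CPM in lymphoid-primed progenitors, 296 ± 12.8 in cluster 4 (led by F2r and Apoe) and 285 ± 9.12 in erythroid progenitors. Cdc45, which joins the ring at the start of S phase, had 77.6 ± 4.96 CPM in erythroid and 73.4 ± 2.99 in monocyte progenitors, with overlapping replicates. Gins2, a GINS subunit, had 82.05 ± 6.99 CPM in erythroid progenitors and 37.1 ± 7.201 in stem and early multipotent cells. Mcm3 (278 ± 35.2) and Mcm4 (233 ± 17.2) were also highest in erythroid progenitors.

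The licensing factors showed wide gaps between classes. Cdc6 had 133 ± 12.7 CPM in erythroid progenitors and 25.96 ± 2.54 in stem and early multipotent cells. Cdt1 had 200 ± 14.7 and 71.8 ± 5.16 CPM there, and its lowest mean was not in late B cells (86.1 ± 30.99) but in basophil and mast cell progenitors (53.7 ± 9.71).

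Pcna, the sliding clamp, had 829 ± 68.3 CPM in erythroid progenitors, 653 ± 136 in pro-B and pre-B cells and 325 ± 31.8 in stem and early multipotent cells. Pcna also has pseudogenes (Pcna-ps1 and Pcna-ps2), so reads could be split between near-identical copies. Rfc4, a subunit of the clamp loader, had 142 ± 11.4, 64.2 ± 14.6 and 47.4 ± 4.499 CPM in these classes. Rfc3, another subunit, was close between erythroid progenitors (105 ± 6.95) and pro-B and pre-B cells (96.5 ± 8.03). Rfc2 did not share the order of its partners, with 306 ± 28.3 CPM in basophil and mast cell progenitors, 288 ± 18.6 in cluster 4, 210 ± 9.92 in stem and early multipotent cells and 163 ± 13.3 in erythroid progenitors. Over the 16 classes its correlation with the sum of the other members was 0.12, against 0.94 for Rfc4. The points share libraries and replicates. The Rfc2 gene overlaps Lat2 on the other strand, as 11 of the 32 members overlap some gene there. The part of this overlap in the levels of Rfc2 was not tested. Dscc1, of the alternative clamp loader, had 46.7 ± 5.53 CPM in erythroid progenitors.

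Pola1, the catalytic subunit of polymerase alpha, was highest in megakaryocyte progenitors (276 ± 27.997 CPM) and cluster 7 (257 ± 22.8). The primase subunit Prim1 (89.2 ± 6.86), the single-strand binding subunit Rpa2 (167 ± 14.3) and the flap nuclease Fen1 (179 ± 13.5) were highest in erythroid progenitors. In stem and early multipotent cells Rpa2 had 80.9 ± 6.12 and Fen1 61.2 ± 12.2 CPM.

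The enzymes of nucleotide supply summed to 1843 ± 87.6 CPM in erythroid progenitors and 632 ± 36.2 in stem and early multipotent cells, beside 1830 ± 76.6 and 1004 ± 50.2 for the helicase. Rrm2, the regulated subunit of ribonucleotide reductase, had 393 ± 39.6 CPM in erythroid progenitors, 294 ± 51.01 in pro-B and pre-B cells and 57.96 ± 11.1 in stem and early multipotent cells. Rrm1, the large subunit, had 372 ± 28.3, 208 ± 27.6 and 156 ± 8.71 CPM. Dut, which breaks down dUTP and so keeps uracil out of DNA, had 875 ± 28.2, 499 ± 72.1 and 323 ± 18.1 CPM. Tyms, thymidylate synthase, had 203 ± 12.2, 134 ± 19.9 and 95.6 ± 8.08 CPM. Erythroid replicates lay above all pro-B and pre-B replicates for Rrm1, Dut and Tyms, and overlapped them for Rrm2.

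Of the genes that guard the fork, Clspn had 135 ± 11.2 CPM in erythroid progenitors and 46.8 ± 8.88 in stem and early multipotent cells, and Tipin 261 ± 17.99 and 112 ± 14.4. The highest mean of Clspn, in mature neutrophils (177 ± 120), had a wide spread. Slbp, which binds histone mRNA, had 367 ± 17.5 and 107 ± 8.75 CPM in erythroid and stem cells, and Chaf1b, of the histone chaperone CAF-1, 62.3 ± 2.63 and 31.8 ± 4.95. Uhrf1, which helps copy DNA methylation to the new strand, was highest in pro-B and pre-B cells (252 ± 32.5), where all replicates lay above erythroid progenitors (178 ± 11.6). Hells, a chromatin remodeller, was highest in cluster 7 (199 ± 20.1) and had 118 ± 9.75 CPM in erythroid progenitors. Ung, which removes uracil from DNA, was highest in cluster 9, with Ccl9 and Cd34 among its leading genes (71.2 ± 7.87), and in cluster 7 (70.9 ± 10.2), while the exonuclease Exo1 had 37.2 ± 2.44 CPM in erythroid progenitors. E2f8, a repressor among the E2F factors, had 184 ± 21.9 CPM in basophil and mast cell progenitors, above every replicate of the next class, and 84.4 ± 6.47 in erythroid progenitors.

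The classes also differed in how the transcripts were spread over cells. Each cell was drawn down to 2000 UMIs, which left out 2894 shallower cells. At least 2 UMIs of the list were then present in 91.7% ± 1.303 of all cells, 99.1% ± 1.23 of erythroid progenitors, 89.6% ± 4.08 of stem and early multipotent cells and 61.5% ± 21.7 of late B cells, so this share was near its ceiling and had a high background. Only 97 late B cells were deep enough to enter it. Median UMIs per cell before this step were 14857 in erythroid progenitors and 1783.5 in late B cells. A minimum of 10 UMIs, chosen after the data were seen, spread the classes further. It was met by 77.5% of erythroid progenitors, 42.7% of cluster 7, 39.3% of monocyte progenitors, 24.02% of stem and early multipotent cells, 6.71% of T, NK or innate lymphoid cells and 1.03% of late B cells. These shares are over the pooled cells of a class, with no spread over replicates. Pro-B and pre-B cells, pooled in the same way, spread widely: 9.48% had 0 UMIs, 15.7% had 1, 29.8% had 2 to 4, 12.2% had 5 to 9 and 32.7% had at least 10.

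Within a class, the genes parted by whether a cell also carried transcripts of G2 and M phase genes. Monocyte progenitors drawn down to 5000 UMIs were divided by 20 G2 and M phase genes, none of them members, into 701 cells with 0 or 1 UMI of those genes and 1355 cells with at least 10. The division was chosen after the data were seen and serves as a description. The 32 genes together had 4542 ± 124 CPM in the first set and 3170 ± 184 in the second. The second set is called the high set below, and the phase of its cells was not measured. In the high set 20 genes were lower in all 8 replicates, 3 were higher in all 8 and 9 were mixed. Such counts, here and in the classes below, were not made over all genes, so they do not set the members apart.

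**Figure D2:**
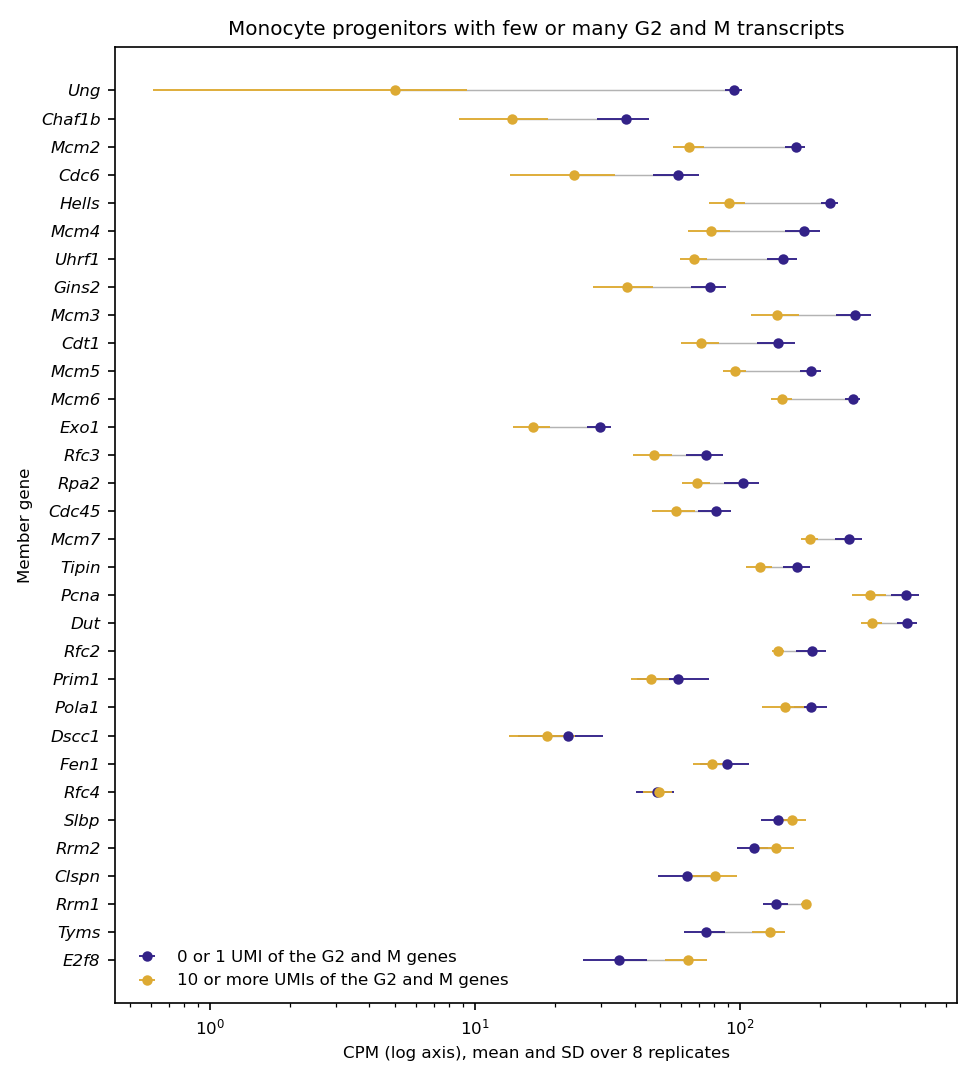
CPM (log axis) of each of the 32 genes in monocyte progenitors with 0 or 1 UMI and with at least 10 UMIs of G2 and M phase genes; points are means and bars SD over 8 replicates. Ung shows the widest gap, and Rrm1, Tyms and E2f8 were higher with many G2 and M phase transcripts in all 8 replicates.

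Ung differed most, with 94.8 ± 7.12 CPM in cells with few G2 and M phase transcripts and 4.98 ± 4.37 in cells with many. All 6 Mcm genes were lower in the high set in all 8 replicates, for example Mcm2 (162 ± 14.3 and 64.4 ± 8.58) and Mcm4 (174 ± 25.8 and 77.8 ± 14.01). So were both licensing factors, Cdc6 having 58.5 ± 11.7 and 23.7 ± 10.1 CPM, and Hells (218 ± 16.3 and 90.7 ± 14.2). Pcna (422 ± 50.5 and 309 ± 45.1) and Dut (428 ± 36.5 and 315 ± 28.3) had narrower gaps. The genes higher in the high set were Rrm1 (137 ± 15.1 and 177 ± 7.89), Tyms (74.3 ± 13.1 and 129 ± 18.4) and E2f8 (35.1 ± 9.55 and 63.5 ± 11.6). The enzymes of nucleotide supply were thus divided, Dut being lower and Rrm1 and Tyms higher.

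In stem and early multipotent cells (554 and 475 cells) 8 genes were lower in the high set in all 8 replicates and 4 were higher. Ung had 51.8 ± 11.8 and 4.59 ± 3.88 CPM, and Mcm6 245 ± 40.2 and 110 ± 32.4. The higher genes were Rrm1 (85.3 ± 21.3 and 180 ± 23.4), Rrm2, Clspn and E2f8 (15.8 ± 7.58 and 43.3 ± 15.8). Erythroid progenitors differed, with 13 genes higher in the high set in all 8 replicates and 0 lower. However, 1354 of their 1857 cells were in the high set. Only 57 had few G2 and M phase transcripts, as few as 4 in a replicate. Rrm2 had 66.9 ± 54.7 and 452 ± 69.1 CPM there, and Slbp 86.1 ± 95.3 and 405 ± 30.9.

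Surgery was compared with sham by edgeR's quasi-likelihood test with batch as a term, and p-values were adjusted by Benjamini-Hochberg over all genes tested. No member passed an adjusted p of 0.05 in all cells or in any class tested. Mature neutrophils had too few cells in a replicate to be tested. The 15 comparisons held 454 tests of members, of which 24 had an unadjusted p under 0.05, 10 of these in lymphoid-primed progenitors. Of all genes tested in that class, 871 of 7946 had an unadjusted p under 0.05. Few genes of any kind passed. The share called was 0.0416% in all cells, 0.0947% in stem and early multipotent cells, 0.831% in lymphoid-primed, 0.0626% in monocyte, 0.0995% in neutrophil and 0.011% in basophil and mast cell progenitors. It was 0.0433% in pro-B and pre-B cells, 0.0715% in cluster 0, 0.0211% in cluster 7 and 0.0409% in cluster 9. It was 0% in erythroid, megakaryocyte and eosinophil progenitors, in T, NK or innate lymphoid cells and in cluster 4. In late B cells 0 of the 32 genes passed the filter on low counts.

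**Figure D3:**
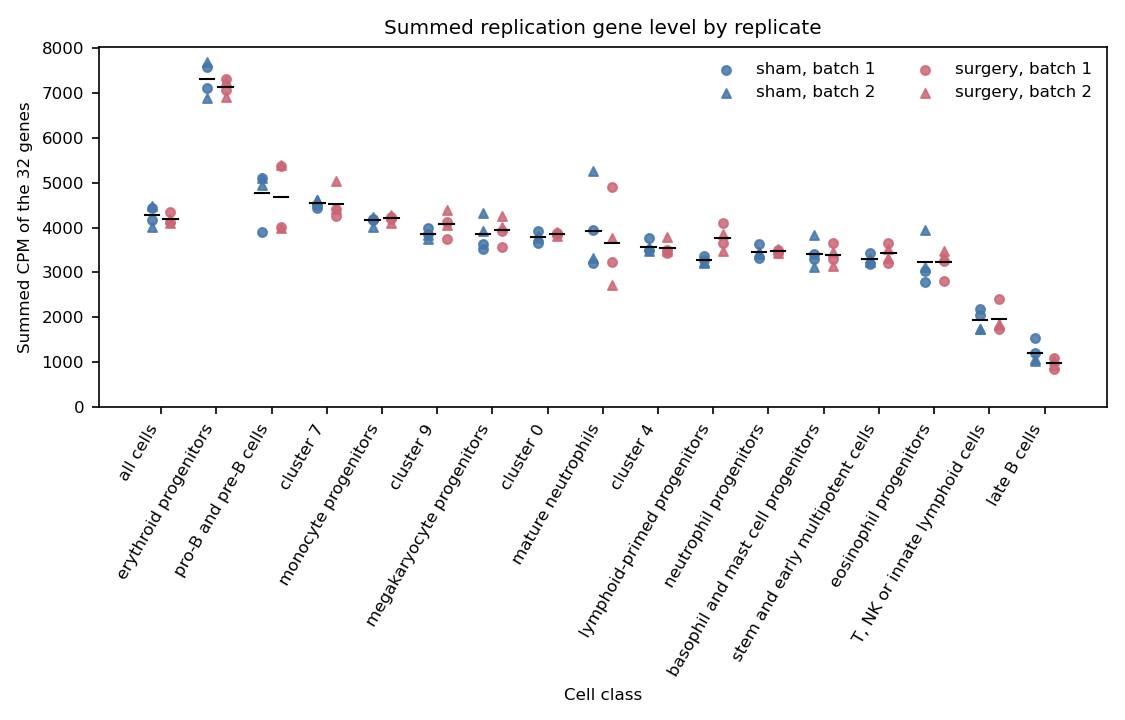
Summed CPM of the 32 genes by class, 1 point per replicate, with sham in blue, surgery in red, circles for batch 1, triangles for batch 2 and lines for group means. Sham and surgery replicates overlap in all classes shown except lymphoid-primed progenitors, where sham lies between 3221 and 3366 and surgery between 3484 and 4100.

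In all cells the list summed to 4272 ± 216 CPM in sham and 4197 ± 114 in surgery. Of the 32 genes, 11 had higher and 21 lower values after surgery, with a median log2 fold change of -0.01, against -0.0022 over all genes tested. Values ran from Dscc1 (-0.08 ± 0.07) and Cdc6 (-0.06 ± 0.07) to Ung (0.04 ± 0.04) and Cdc45 (0.05 ± 0.05), as log2 ± SE. Late B markers were lower after surgery in all cells (45.9 to 64.4 CPM against 72.6 to 83.4, 8 markers, 0 without UMIs), and their part in these values was not tested. In such sums, fewer cycling cells and less RNA per cell cannot be told apart.

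Stem and early multipotent cells summed to 3295 ± 101 CPM in sham and 3433 ± 194 in surgery, and 26 of 32 genes had higher values after surgery. The median log2 fold change was 0.05, with 0.02 in batch 1 and 0.09 in batch 2. Clspn had 32.3, 44.7, 46.7 and 36.99 CPM in sham and 59.5, 54.1, 51.7 and 48.6 in surgery, batch 1 first. Every surgery replicate lay above every sham replicate for this 1 member, as for 1.01% of all genes tested, and the change of 0.37 ± 0.12 had an adjusted p of 0.956 by edgeR. Values ran from Cdc45 (-0.12 ± 0.13) and Hells (-0.04 ± 0.08) to E2f8 (0.28 ± 0.15) and Clspn (0.37 ± 0.12).

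Lymphoid-primed progenitors had the largest median change of the 15 comparisons, although no member passed the test. This class of 791 cells, marked by Flt3 and Dntt, is an early stage on the way to lymphocytes. The 32 genes summed to 3279, 3366, 3236 and 3221 CPM in sham and 4100, 3647, 3484 and 3868 in surgery, batch 1 first, so all surgery replicates lay above all sham replicates. Of 32 genes, 29 had higher values after surgery, with a median log2 fold change of 0.26, against -0.0015 over the 7946 genes tested, of which 49.7% were higher. The median was 0.24 in batch 1 and 0.23 in batch 2. All surgery replicates lay above all sham replicates for 3 of the 32 genes (9.38%) and for 2.48% of all genes tested.

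**Figure D4:**
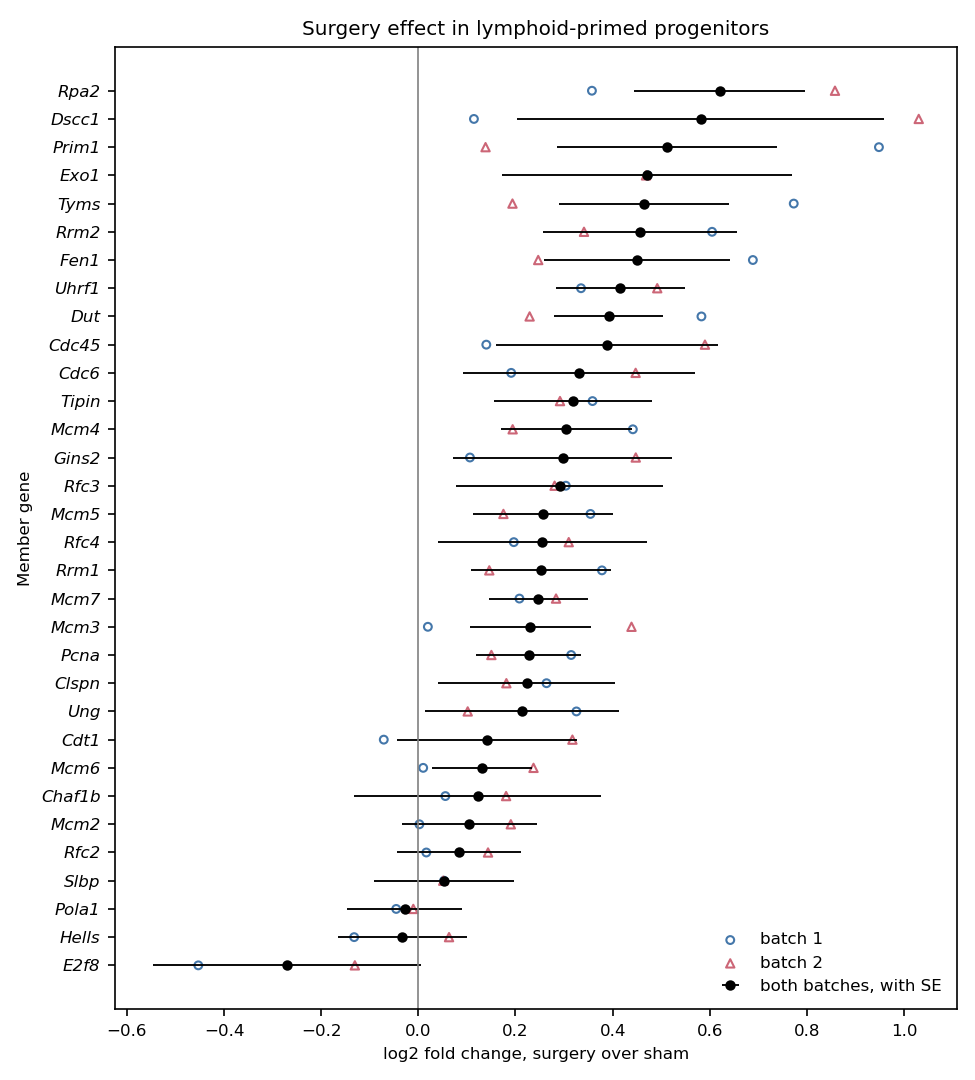
log2 fold change of surgery over sham in lymphoid-primed progenitors for the 32 genes, with SE from the fit of both batches and the values of each batch. Of the 32 genes 29 lie above 0, from Rpa2 at 0.62 to E2f8 at -0.27.

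The genes without overlap were Dut, Uhrf1 and Mcm7. Dut (chr2:125247190-125258608, plus strand) had 208, 218, 260 and 252 CPM in sham and 354, 285, 279 and 304 in surgery. Its change of 0.39 ± 0.11 had an adjusted p of 0.0971 by edgeR and of 0.0486 by DESeq2. Uhrf1 (chr17:56303321-56323486, plus strand) had 104, 117, 94.7 and 98.3 CPM in sham and 140, 145, 142 and 128 in surgery, a change of 0.42 ± 0.13 (edgeR adjusted p of 0.154). Mcm7 had 286, 299, 275 and 253 and 345, 330, 308 and 318 CPM, a change of 0.25 ± 0.10 (edgeR adjusted p of 0.343).

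Rpa2 (chr4:132768332-132778752, plus strand) had the largest change, and its groups overlapped, with 83.3, 66.6, 53.7 and 53.5 CPM in sham and 74.1, 103, 75.5 and 106 in surgery. The change of 0.62 ± 0.18 had an edgeR adjusted p of 0.0934, and without surgery replicate 1 of batch 1 it was 0.73 with an adjusted p of 0.0345. Dscc1 came next in size (0.58 ± 0.38), on 70 UMIs over all 8 replicates. Other members with an unadjusted p under 0.05 were Prim1 (0.51 ± 0.23), Tyms (0.46 ± 0.18), Rrm2 (0.46 ± 0.20), Fen1 (0.45 ± 0.19), Mcm4 (0.30 ± 0.14) and Pcna (0.23 ± 0.11). Rrm2 overlapped between the groups, with 26.03, 61.7, 59.99 and 72.1 CPM in sham and 95.98, 66.5, 49.4 and 101 in surgery. The members with lower values were E2f8 (-0.27 ± 0.28), Hells (-0.03 ± 0.13) and Pola1 (-0.03 ± 0.12).

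Summed by role in this class, the helicase had 1142 ± 63.5 CPM in sham and 1287 ± 23.02 in surgery, nucleotide supply 486 ± 73.04 and 630 ± 94.7, and the clamp and loaders 550 ± 34.3 and 625 ± 59.2. Chromatin and histone supply genes had 416 ± 43.5 and 440 ± 41.1 CPM.

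The size of the shift depended on how the class was drawn. With cell cycle genes in the clustering, the class held 1345 cells, 619 of them shared with the 791 here and 700 from cluster 7, and the median was 0.05 with 22 of 32 genes higher. Of the 791 cells, 159 then went to another cluster, 18.7% ± 2.43 of sham and 19.9% ± 4.301 of surgery cells. Classes drawn by the marker UMIs of each cell gave a median of 0.22, and cells drawn down to 2000 UMIs gave 0.17 over the 20 genes that passed the filter. Median UMIs per cell in this class were 4315 and 4442 in sham and 5647 and 5273 in surgery in batch 1. In batch 2 they were 5029 and 7100 in sham and 9098 and 7566 in surgery. Within each batch, every surgery replicate was thus deeper than every sham replicate. Beyond the draw to 2000 UMIs, the part of depth in the shift was not tested.

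Of 17 marker lists, 2 did not overlap between the groups in this class, and both were lower after surgery. The 10 stem and early multipotent markers summed to 1140 to 1300 CPM in sham and 805 to 1036 in surgery, and the 9 monocyte progenitor markers to 1184 to 1385 and 924 to 1070, with 0 markers of either list without UMIs. The 6 lymphoid-primed markers overlapped (3274 to 3727 and 3257 to 3713). The part of these markers in the shift was not tested.

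Other genes of the pathway had smaller medians in lymphoid-primed progenitors, and none passed the edgeR test. Of 55 further replication genes 51 were tested and 43 had higher values after surgery, with a median of 0.12 and 2 at an unadjusted p under 0.05. Of 18 E2F and G1/S regulators 13 were tested and 10 were higher, with a median of 0.10. Of the 20 G2 and M phase genes 12 were higher, with a median of 0.14, and their sum differed by -0.10 in batch 1 and 0.26 in batch 2 (log2). The share of cells with at least 10 UMIs of the replication list was 21.8% ± 4.35 in sham and 25.9% ± 6.58 in surgery, with overlapping replicates. With at least 2 UMIs it was 84.7% ± 2.75 and 90.8% ± 1.62.

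Differences in the surgery effect between classes were tested with the replicate as a block. Lymphoid-primed progenitors against stem and early multipotent cells gave a median difference of 0.24 over the 32 genes and 0 members called (lowest edgeR adjusted p of 0.251, 0.257% of all genes called). Neutrophil and erythroid progenitors against stem and early multipotent cells gave medians of -0.07 and -0.10 and 0 members called, with 0.0086% and 0.0433% of all genes called. Pairs with lymphoid-primed progenitors as the reference were added after the data were seen and share its samples. Neutrophil progenitors gave 0 members called (0.281% of all genes), erythroid progenitors 0 (0.173%) and monocyte progenitors 1 (0.83%). The gene was Dut, with a surgery effect lower in monocyte than in lymphoid-primed progenitors (-0.44 ± 0.11, edgeR adjusted p of 0.0211).

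In the other 14 comparisons the medians of the members lay between -0.06 and 0.12, and the lowest edgeR adjusted p was 0.895. In erythroid progenitors, where the genes were highest, 28 of 32 had lower values after surgery at a median of -0.06, from Gins2 (-0.18 ± 0.07) and Ung (-0.14 ± 0.14) to Slbp (0.02 ± 0.05) and Hells (0.06 ± 0.07). Cluster 9 had 27 of 32 higher at a median of 0.07, from Fen1 (-0.10 ± 0.10) and Gins2 (-0.07 ± 0.13) to E2f8 (0.27 ± 0.14) and Cdc45 (0.34 ± 0.13). Rrm2 had -0.34 in batch 1 and 0.55 in batch 2 there, and the test of that difference gave an edgeR adjusted p of 0.0771, the lowest of any member. Monocyte progenitors, the largest class with 4437 cells, had 25 of 32 higher at a median of 0.03, from E2f8 (-0.06 ± 0.05) and Clspn (-0.06 ± 0.05) to Rfc3 (0.11 ± 0.06) and Rpa2 (0.13 ± 0.06). Only 594 of these cells also met the per-cell marker gate for monocyte progenitors, while 1065 met that for neutrophil progenitors. With monocyte progenitors taken by that gate, 13 of 32 were higher at a median of -0.04.

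Neutrophil progenitors had 17 of 32 genes higher, from Dscc1 (-0.18 ± 0.12) and Mcm6 (-0.12 ± 0.04) to E2f8 (0.15 ± 0.09) and Cdc45 (0.17 ± 0.08). Cluster 0, led by S100a8, Wfdc21 and Fcnb, had 23 higher, from Dscc1 (-0.15 ± 0.10) and Tyms (-0.08 ± 0.05) to Gins2 (0.12 ± 0.07) and Exo1 (0.18 ± 0.10). Megakaryocyte progenitors had 21 higher at a median of 0.06, from Ung (-0.31 ± 0.19) and Rrm2 (-0.15 ± 0.17) to Rfc3 (0.19 ± 0.19) and E2f8 (0.21 ± 0.14). With cell cycle genes kept in the clustering they had 13 higher at a median of -0.04. None of these values passed the test. Basophil and mast cell progenitors had 15 higher, from Exo1 (-0.29 ± 0.23) and Cdc45 (-0.19 ± 0.18) to Rfc3 (0.22 ± 0.17) and Dscc1 (0.30 ± 0.32). Pro-B and pre-B cells had 15 higher, from Gins2 (-0.42 ± 0.21) and Prim1 (-0.21 ± 0.17) to Hells (0.29 ± 0.16) and Dscc1 (0.30 ± 0.23). Cluster 4 had 16 higher, from Exo1 (-0.35 ± 0.26) and Rrm2 (-0.24 ± 0.17) to Rfc3 (0.18 ± 0.17) and E2f8 (0.35 ± 0.14), and cluster 7 had 12, from Cdc45 (-0.25 ± 0.15) and Dscc1 (-0.19 ± 0.20) to Mcm7 (0.12 ± 0.07) and Ung (0.20 ± 0.12). The median in cluster 4 was -0.09 in batch 1 alone and 0.06 in batch 2 alone. In the smallest classes only part of the list passed the filter. T, NK or innate lymphoid cells had 11 of 18 tested higher, from Rrm1 (-0.66 ± 0.29) and Tyms (-0.57 ± 0.36) to Rfc2 (0.31 ± 0.21) and Mcm3 (0.44 ± 0.25). Eosinophil progenitors had 7 of 20 tested higher, from Hells (-0.49 ± 0.28) and Slbp (-0.35 ± 0.34) to Tyms (0.74 ± 0.38) and Clspn (0.79 ± 0.39).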

How the data were processed

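The deposited files hold raw UMI counts per gene and cell for 2 libraries, with hashtag counts in the same matrices, and per the submitters' processing notes the authors used Cell Ranger and GRCm38. Further steps are not given in the sources used here. Barcodes (18094 and 14179) were kept if they had 500 or more genes, 1000 or more UMIs and no more than 10% mitochondrial UMIs, and assigned where exactly 1 hashtag reached 200 counts (14678 and 12264 cells). Scrublet, run through scanpy 1.11.5, called 1.2% and 0.803% of kept barcodes as doublets (17.6% and 18.01% of barcodes with several hashtags), which were removed. Hashtag rows, 22.2% and 16.1% of all counts, stayed out of library sizes and tests. Clusters (Leiden method of igraph 0.11.9, 2000 variable genes less cell cycle genes, 30 components, resolution 1) were named by marker lists. The naming thresholds were set after seeing the data. They kept clusters 4, 18 and 12 unnamed, at 6.84%, 2.17% and 2.99% of sham and 6.71%, 1.997% and 3.14% of surgery cells, and 8 unnamed clusters and the mature neutrophils entered no comparison. Counts were summed per replicate and class and tested with edgeR 4.0.16 (TMM, filterByExpr, quasi-likelihood, batch term), checked on simulated data, with DESeq2 1.42.0, other scaling, filters, hashtag minimums, class definitions and depths, single batches and left-out replicates as alternatives. Named in each class were the 2 largest and 2 smallest changes, since no member was called. The members and lists were chosen with earlier results of these data known. Promoter windows are from RefSeq, gene positions from GENCODE M21.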

Additional observations from a re-analysis of the deposited data

Results flagged for a closer look

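Of 162 groups of 4 replicates checked for a sample far from the others, 10 were picked out, where chance picks about 5%. For sums over the 32 genes, 1 sham replicate of pro-B and pre-B cells had 3899 CPM (others 4956 to 5110), 1 surgery replicate of T, NK or innate lymphoid cells 2402 (1751 to 1853) and 1 surgery replicate of cluster 4 3801 (3428 to 3491). For Cdc6 in all cells, 1 sham replicate had 43.9 CPM (others 52.6 to 52.7) and 1 surgery replicate 54.6 (44.9 to 45.98), so that the 2 lone replicates lay on opposite sides.

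In lymphoid-primed progenitors, 1 surgery replicate stood apart for Gins2 (66.8 CPM, others 38.4 to 43.2), Cdt1 (110, 60.6 to 69.04) and Fen1 (56.8, 74.1 to 75.5), and 1 sham replicate for Slbp (102, 130 to 134) and Prim1 (56.8, 36.4 to 38.7). For Dut the surgery effect was -0.44 (log2) in monocyte progenitors relative to lymphoid-primed progenitors (edgeR adjusted p of 0.0211). That pair was added after the data were seen, and 0.83% of all genes were called in it. Dut was not called between lymphoid-primed progenitors and stem and early multipotent cells, neutrophil progenitors or erythroid progenitors (edgeR adjusted p of 0.251, 0.0791 and 0.0577).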

How the results depend on the processing

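The count of members past the threshold was 0 in every class and setting run, apart from the following. In lymphoid-primed progenitors DESeq2 called 1 (Dut), and leaving out each replicate in turn gave 0 to 1 (Rpa2, without surgery replicate 1 of batch 1). In late B cells the marker gate called 2 of 7 tested (Dut and Pcna), and in cluster 9 batch 2 alone called 1 (Rrm2). The cause of these calls was not tested. The shares of all genes called in these settings, and the direction of the late B calls, are not given here. Hashtag numbers did not pair the replicates: same-numbered replicates correlated at 0.117 to 0.153 around group means but at 0.0033 and 0.00039 once batch was removed. The replicate block called 0 members in every comparison and gave a median of 0.26 in lymphoid-primed progenitors.

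The median member log2 fold change moved by more than the spread of replicate medians in lymphoid-primed progenitors (0.047) and megakaryocyte progenitors (-0.040) when cell cycle genes took part in the clustering, and in monocyte progenitors with the marker gate (-0.044). It also moved in cluster 4 (-0.090 in batch 1 alone, 0.061 in batch 2 alone, 0.056 thinned to 2000 UMIs), cluster 7 (-0.10 in batch 1 alone) and cluster 9 (0.17 in batch 2 alone). Leaving out 1 replicate gave 0.23 to 0.34 in lymphoid-primed progenitors. Single members there changed sign for E2f8 (0.28) and Mcm4 (-0.0052) with cell cycle genes in the clustering, for Rrm2 when thinned (-0.022), and for Hells (0.057 in batch 2 alone, 0.13 thinned, 0.14 with the marker gate, and above 0 without sham replicate 2 of batch 1 (0.0011), sham replicate 2 of batch 2 (0.050), surgery replicate 1 of batch 2 (0.011) or surgery replicate 2 of batch 1 (0.030)).

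Summed member CPM moved when cells were thinned in all cells (3972), monocyte progenitors (4273), neutrophil progenitors (3363), pro-B and pre-B cells (3689), T, NK or innate lymphoid cells (1652) and cluster 4 (3279). With the marker gate it moved in stem and early multipotent cells (3669), late B cells (2232), monocyte progenitors (4276) and neutrophil progenitors (3742). With cell cycle genes in the clustering it moved in stem and early multipotent cells (3593), lymphoid-primed progenitors (4037), late B cells (3588), neutrophil progenitors (3802) and cluster 0 (3537). T, NK or innate lymphoid cells did not move with the gate or with this clustering, so late B cells were not the lowest class there. The percent of cells with at least 2 member UMIs moved with the depth and the minimum: thinned to 1000 UMIs it was 75.01 in all cells, 95.3 in erythroid progenitors, 70.6 in stem and early multipotent cells, 65.6 in lymphoid-primed progenitors and 30.2 in late B cells. At a minimum of 4 UMIs it was 76.7, 96.4, 70.3, 66.9 and 9.102, and at the added minimum of 10 UMIs 34.1, 75.5, 24.4, 23.9 and 1.04, in that order, all as means of 8 replicates and not over pooled cells. Without thinning it was 94.2 in all cells, 99.02 in stem and early multipotent cells and 95.6 in lymphoid-primed progenitors.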
